A study of Mus musculus with 4 samples.

Results

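Ccl2, Ccl7, Ccl8 and Ccl12 are the mouse genes of the monocyte chemoattractant proteins MCP-1, MCP-3, MCP-2 and MCP-5. They were followed here as 4 of the 28692 genes counted in single cells of the colon lamina propria. The 4 genes were taken as a family by name and position on chromosome 11. Ccl8 was already known, from an earlier reading of these same data, to lead a cluster of C1qa-rich cells and to lie higher in DEP mice within such cells, so every value of Ccl8 below is a description without a test. The set was thus chosen by the measured level of Ccl8 in those cells, and Ccl2, Ccl7 and Ccl12 joined as its family members and were tested.

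Male C57/Bl6N mice were gavaged on 5 days a week for about 6 months, either with 12 µg diesel exhaust particles (DEP) in 200 µL PBS or with PBS alone. There were 2 mice in each group, labelled DEP 11, DEP 13, PBS 2 and PBS 3, and nothing but the particles differed by label. Each mouse gave 1 library, so that mouse and library cannot be told apart. Monocytes and macrophages were sorted as Cd11b+ cells that were Ly6c2+ or Cd64+, and each mouse filled 1 well of a droplet instrument for 3′ counting of unique molecular identifiers (UMIs, 1 per captured transcript). Of 6954 barcodes, 4771 held at least 1000 UMIs, 4623 passed the filters on genes and mitochondrial reads, and 4486 were analysed after 137 lymphoid cells (58 T and B cells, 79 plasma cells) had been set aside.

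Ccl2, Ccl7 and Ccl12 attract monocytes and other leukocytes that carry the receptor Ccr2, and Ccl7 and Ccl8 are known to bind other CC receptors. In the gut, Ly6c-high blood monocytes enter the lamina propria through Ccr2 and then mature into resident macrophages, losing Ly6c and Ccr2 and gaining complement C1q. Folr2, a folate receptor, marks a subset of long-lived tissue macrophages. Ccl2 is classically induced through NF-kappaB and AP-1 during inflammation.

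The 4 genes lay on the plus strand of chromosome 11 (GRCm38/mm10, RefSeq) within 81223 bases. Ccl2 spanned 82035577 to 82037452, Ccl7 82045712 to 82047525, Ccl12 82101845 to 82103399 and Ccl8 82115185 to 82116799. Ccl11, a member of the same cluster that attracts eosinophils, lay between Ccl7 and Ccl12. Each gene had 3 exons. Because members of such a cluster are alike, the sequences are shown first, to let a reader judge whether reads of one gene could be counted for another. The windows below, of 54 bases each, were read from the GENCODE M21 transcripts. They lie in the coding part of exon 2 and begin 5 codons before the pair of neighbouring cysteine codons that gives CC chemokines their name, which is in capitals.
Ccl2 (chr11:82036491-82036544): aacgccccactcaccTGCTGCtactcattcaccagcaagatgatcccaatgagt
Ccl7 (chr11:82046523-82046576): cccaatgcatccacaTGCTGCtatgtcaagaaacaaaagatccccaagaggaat
Ccl12 (chr11:82102619-82102672): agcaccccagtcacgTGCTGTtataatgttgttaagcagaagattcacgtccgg
Ccl8 (chr11:82116041-82116094): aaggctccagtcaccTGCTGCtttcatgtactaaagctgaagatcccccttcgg
In these windows Ccl8 and Ccl12 had 38 of 54 bases in common, the most of any pair, and Ccl7 and Ccl8 had 19. Over the whole coding sequence, Ccl7, Ccl8 and Ccl12 were 64.6% to 66.7% identical to each other, and Ccl2, whose coding sequence is longer (444 bases against 291 to 312), was 49.4% to 51.9% identical to the other 3. The longest run of bases shared by any pair of whole transcripts was 23, between Ccl2 and Ccl7, and within the last 300 bases, where a 3′ library reads, it was 13, between Ccl8 and Ccl12.

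The promoters of Ccl12 and Ccl8 are shown, and those of Ccl2 and Ccl7 were not available here. The windows run from 250 bases before to 50 bases after the RefSeq start site (GRCm38) and are printed with matches to the motifs searched in capitals.
Ccl12 (chr11:82101595-82101894, plus strand): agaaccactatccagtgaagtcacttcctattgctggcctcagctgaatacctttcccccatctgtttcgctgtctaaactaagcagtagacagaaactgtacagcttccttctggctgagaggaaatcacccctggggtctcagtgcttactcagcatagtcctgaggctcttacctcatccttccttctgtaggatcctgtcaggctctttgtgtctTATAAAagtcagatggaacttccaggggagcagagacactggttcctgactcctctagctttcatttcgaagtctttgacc
Ccl8 (chr11:82114935-82115234, plus strand): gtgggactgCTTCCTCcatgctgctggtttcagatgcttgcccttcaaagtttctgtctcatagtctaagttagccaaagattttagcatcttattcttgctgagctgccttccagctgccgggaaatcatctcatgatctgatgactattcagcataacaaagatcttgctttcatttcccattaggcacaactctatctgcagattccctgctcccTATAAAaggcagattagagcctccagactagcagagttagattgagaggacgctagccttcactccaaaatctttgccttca
Both held the TATA box TATAAA, at 31 bases before the start in Ccl12 and 32 in Ccl8, which 13.6% of 32851 mouse promoter windows of this length held on either strand. The window of Ccl8 also held the PU.1 motif GAGGAAG on the minus strand (13.6% of windows). No match was found in either window for AP-1 (TGANTCA, 7.81% of windows), STAT (TTCNNNGAA, 8.30%), C/EBP (TTGCNNAA, 10.8%) or NF-kappaB (9.38%), on either strand and with no overlap among the matches found. The 2 windows were 58.0% identical when aligned.

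The 4 libraries held 4489342 to 10293703 UMIs in all, and the analysed cells of a mouse had a median of 5372 to 7254 UMIs. There were 1157 and 619 analysed cells from DEP 11 and DEP 13, and 1225 and 1485 from PBS 2 and PBS 3. A total of 36 barcode sequences occurred in more than 1 library, which touched 33 analysed cells. All 14 macrophage markers and all 8 monocyte markers looked for were above 0 in every mouse, and of the marker lists of other cell types those of B cells (46.9 to 72.9 UMIs per 1000000 UMIs, CPM) and dendritic cells (39.7 to 68.5 CPM) were highest after plasma cells. The lists of endothelial cells, neutrophils and T cells summed to 20.4 to 41.1 CPM, that of epithelial cells to at most 16.1 CPM, and those of fibroblasts, mast cells and eosinophils to at most 14.7, 3.64 and 2.26 CPM. Plasma cell marker transcripts still made up 3885 to 9170 CPM of the analysed cells, and their part in the results was not tested.

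Cells were divided by the level of 3 genes, with high meaning above the median of the cells that had any UMI of that gene. This gave 841 Ly6c2-high cells, 1448 cells high in neither Ly6c2 nor C1qa, 1960 C1qa-high Folr2-low and 138 C1qa-high Folr2-high cells; the other 99 cells were high in both. A class is a range of levels, not a cell type, and 13.4% of cells lay near the C1qa limit (from 20% below to 25% above it), 6.69% near the Ly6c2 limit and 2.34% near the Folr2 limit. The median level of Ccr2 was 6.72 UMIs per 10000 in Ly6c2-high cells, 1.55 in C1qa-high Folr2-low cells and 0.851 in Folr2-high cells. Values below are CPM over all cells of the class, for each mouse in the order DEP 11, DEP 13, PBS 2 and PBS 3.

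Ccl12 and Ccl7 were higher in C1qa-high than in Ly6c2-high cells, and Ccl2 did not differ in a way that held across settings. Ccl12, the mouse MCP-5, stood at 58.5, 78.0, 88.0 and 72.4 CPM in Ly6c2-high cells and at 395, 562, 546 and 320.1 CPM in C1qa-high cells. The ranges did not overlap and the gene was higher in 4 of 4 mice. The log2 fold change was 2.602 ± 0.094 (SE; edgeR quasi-likelihood F test with the mouse as block, Benjamini-Hochberg adjusted p = 1.66e-14). Ccl7, the MCP-3 gene, went from 47.9, 59.0, 117 and 140.1 CPM to 185, 369, 354 and 326 CPM, again in 4 of 4 mice and without overlap (log2 fold change 1.69 ± 0.12, edgeR adjusted p = 8.18e-10). In this comparison 39.5% of 6906 genes passed the 5% false discovery rate, 18.8% higher and 20.7% lower, so that a call as such was common. Ccl7 and Ccl12 were 2 of the genes called higher. Each of the 4 members passed the filter on low counts in every comparison.

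Ccl8, the MCP-2 gene, lay at 88.2, 122, 95.1 and 78.0 CPM in Ly6c2-high cells and at 771, 929, 525 and 481 CPM in C1qa-high cells, a log2 ratio of 2.79, given as a description. Every C1qa-high value was above every Ly6c2-high value.

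Ccl2, the MCP-1 gene and the main ligand of Ccr2, was 262, 225, 496 and 322 CPM in Ly6c2-high cells and 132, 266, 354 and 281 CPM in C1qa-high cells. It was lower in C1qa-high cells in 3 of 4 mice, the ranges overlapped, and the fitted log2 fold change of -0.37 ± 0.11 passed the threshold (edgeR adjusted p = 0.00974). That call was lost with DESeq2 (adjusted p = 0.0872), without DEP 11 (edgeR adjusted p = 0.0615), without PBS 2 (0.185) or with the lymphoid cells kept (0.157). With each cell thinned to 1000 UMIs the log2 fold change was 0.18 with classes drawn anew and -0.06 with the classes of the full depth, so the difference did not hold up across these settings.

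**Figure D1:**
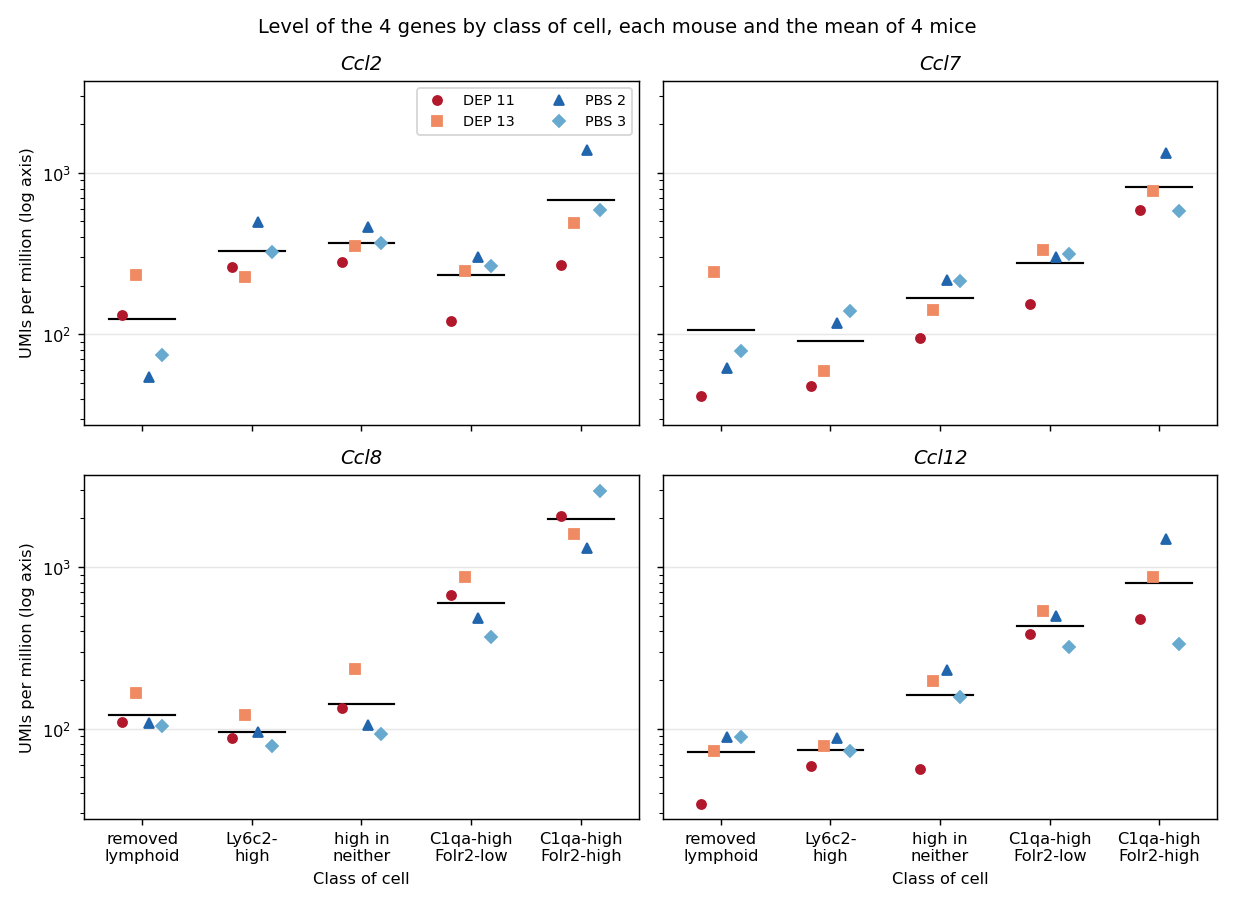
Level of Ccl2, Ccl7, Ccl8 and Ccl12 (UMIs per 1000000 UMIs, log axis) in the removed lymphoid cells and in 4 classes of analysed cells; each symbol is 1 mouse and each bar the mean of 4 mice. Ccl8 lay between 78.0 and 122 in Ly6c2-high cells and between 1306 and 2961 in C1qa-high Folr2-high cells, whereas the Ccl2 values of the classes overlapped.

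The low end of these ranges was at the level of transcripts found in cells of another lineage. Barcodes under 500 UMIs held 113 to 387 CPM of Ccl8 and 96.6 to 197 CPM of Ccl12 over the 4 mice. Of Ccl7 they held 80.5 to 156 CPM and of Ccl2 121 to 258 CPM. T, B and plasma cells held 111, 167, 109 and 104 CPM of Ccl8, 34.4, 73.2, 89.3 and 89.2 CPM of Ccl12, and 41.8, 245, 62.2 and 78.5 CPM of Ccl7. After thinning to 1000 UMIs, 7.07% to 9.61% of Ly6c2-high cells of a mouse and 9.09% to 24.2% of the lymphoid cells had a Ccl8 UMI, and the source of these UMIs was not tested. Without thinning the shares were 27.5% to 42.0% and 56.4% to 66.7%, with median depths of 4396 to 6038 and 3036 to 13201 UMIs. Ccl12 (4.37% to 6.49% against 0% to 6.06%) and Ccl7 (1.75% to 9.56% against 0% to 10%) in Ly6c2-high cells were likewise near the lymphoid share. The shares of 0 came from few cells, 0 of 19 lymphoid cells of PBS 2 for Ccl2 and Ccl7, which allows up to 15.8% by counting error alone, and 0 of 30 of DEP 11 for Ccl12, which allows up to 10%. For Ccl2 the thinned share was 10.0% to 22.9% in Ly6c2-high cells against 0% to 15.2% in lymphoid cells, and its level was above the lymphoid 133, 54.4 and 74.5 CPM in DEP 11, PBS 2 and PBS 3, and below the lymphoid 235 CPM in DEP 13. Ccl8 UMIs per Ccl2 UMI were 0.192 to 0.542 in Ly6c2-high cells, 0.71 to 2 in lymphoid cells and 0.933 to 1.67 in barcodes under 500 UMIs.

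At the matched depth of 1000 UMIs per cell, a UMI of Ccl8 was found in 20.3% to 32.9% of the C1qa-high cells of a mouse, of Ccl12 in 17.7% to 24.5%, of Ccl7 in 12.1% to 17.0% and of Ccl2 in 10.8% to 19.8%. The first 3 ranges lay above those of Ly6c2-high cells. For Ccl2 the classes overlapped in share as in level. In cells without any Ly6c2 UMI (2606 cells), Ccl8 was 547 ± 234 CPM (SD, n = 4 mice) and Ccl12 365 ± 95.6; in cells of high Ly6c2, whatever their C1qa (940 cells), they were 154 ± 56.4 and 118 ± 33.2. By C1qa alone, Ccl2 was 361 ± 84.9 CPM in the 2197 cells of low C1qa and 262 ± 93.3 in the 2197 of high C1qa.

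Among C1qa-high cells, the 138 Folr2-high cells carried more of these transcripts than the 1960 Folr2-low cells. Ccl7 was 586, 772, 1333 and 582 CPM in Folr2-high and 153, 332, 302 and 315 CPM in Folr2-low cells, higher in 4 of 4 mice with no overlap (log2 fold change 1.46 ± 0.14, edgeR adjusted p = 1.91e-07). Ccl2 was 270.0, 488, 1381 and 592 against 121, 245, 299.9 and 267 CPM, also higher in 4 of 4 mice, with ranges that overlapped between mice (1.33 ± 0.14, adjusted p = 1.16e-06). Both calls held in each of the 15 other settings that gave a value, where the log2 fold change was 0.75 to 1.68 for Ccl7 and 0.85 to 1.45 for Ccl2. In this comparison 5.66% of 7214 genes were called, 2.09% higher and 3.56% lower, and all 3 tested members were called higher. Of 13 immediate early and heat shock genes, known to rise when tissue is digested, 9 were called lower in Folr2-high cells and none higher (median log2 fold change -0.45, against -0.0054 for all genes), each in at least 10 of the 15 alternatives. Between C1qa-high and Ly6c2-high cells 4 of them were higher and 6 lower (median -0.14). Their part in the levels of the chemokines was not tested.

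Ccl12 was the least firm of the 3. It was 479.6, 874, 1490.0 and 335 CPM in Folr2-high and 388, 533, 496 and 319 CPM in Folr2-low cells (log2 fold change 0.64 ± 0.15, edgeR adjusted p = 0.00937), nearly the same in PBS 3. The call was lost without PBS 2 (log2 fold change 0.28, adjusted p = 0.313), without DEP 11 (0.77, 0.0533), with DESeq2 (0.57, 0.366) and with either other definition of high (0.09 to 0.23). Ccl8 was 2085, 1595, 1306 and 2961 CPM in Folr2-high and 669, 867, 484 and 369 CPM in Folr2-low cells, a log2 ratio of 1.63. These classes held 28 to 39 Folr2-high cells a mouse and single cells weighed in them. Without the single highest cell of each mouse, Ccl8 in Folr2-high cells was 1155, 1165, 851 and 1938 CPM and Ccl7 481, 506, 1092 and 486 CPM, still above every Folr2-low value of Ccl7. Ccl12 without that cell was 279, 718, 1225 and 238 CPM in Folr2-high against 355, 498, 467 and 293 CPM in Folr2-low cells, and thus lower in Folr2-high cells in DEP 11 and PBS 3.

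Transcripts of the 4 genes were unevenly spread over the cells. In all analysed cells, 5% of the cells (225 cells) held 52.4% of the Ccl2 UMIs, 67.2% of Ccl7, 67.9% of Ccl8 and 61.8% of Ccl12. The highest cell had 96, 128, 273 and 168 UMIs of Ccl2, Ccl7, Ccl8 and Ccl12, whereas 51.2% to 62.9% of cells had none of a given gene. Cells with 10 or more Ccl8 UMIs were 207 of the 2098 C1qa-high cells and 1 of the 841 Ly6c2-high cells. For Ccl2 these numbers were 110 and 41, that is 5.24% and 4.88% of the cells. The same cut-off thus held like shares of the classes for Ccl2, and 9.87% and 0.119% of them for Ccl8, with higher median depth in the C1qa-high cells (6873 to 9024 UMIs a mouse, against 4396 to 6038).

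Detection of the genes in the same cell was examined in C1qa-high cells at the thinned depth. Of cells with a Ccl2 UMI, 31.7% to 38.5% per mouse also had a Ccl7 UMI, against 9.0% to 13.6% of cells without Ccl2. Of cells with a Ccl7 UMI, 34.1% to 39.0% had a Ccl12 UMI, against 14.9% to 21.5% of the others. Both shares were higher with the first gene in 4 of 4 mice. Ccl8 was tied less closely to Ccl2, with 19.8% to 46.2% of cells with a Ccl2 UMI also holding Ccl8 against 19.4% to 30.9% of those without, and higher in 3 of 4 mice. In Ly6c2-high cells a Ccl7 UMI was found in 0% to 12.5% of cells with Ccl2, against 1.46% to 9.90% without, and more often in 2 of 4 mice. Ccl12 was also found more often with Ccl7 in 2 of 4 mice there, from as few as 4 cells a mouse with Ccl7. All these shares describe cells of the same libraries, and cells are not replicates.

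**Figure D2:**
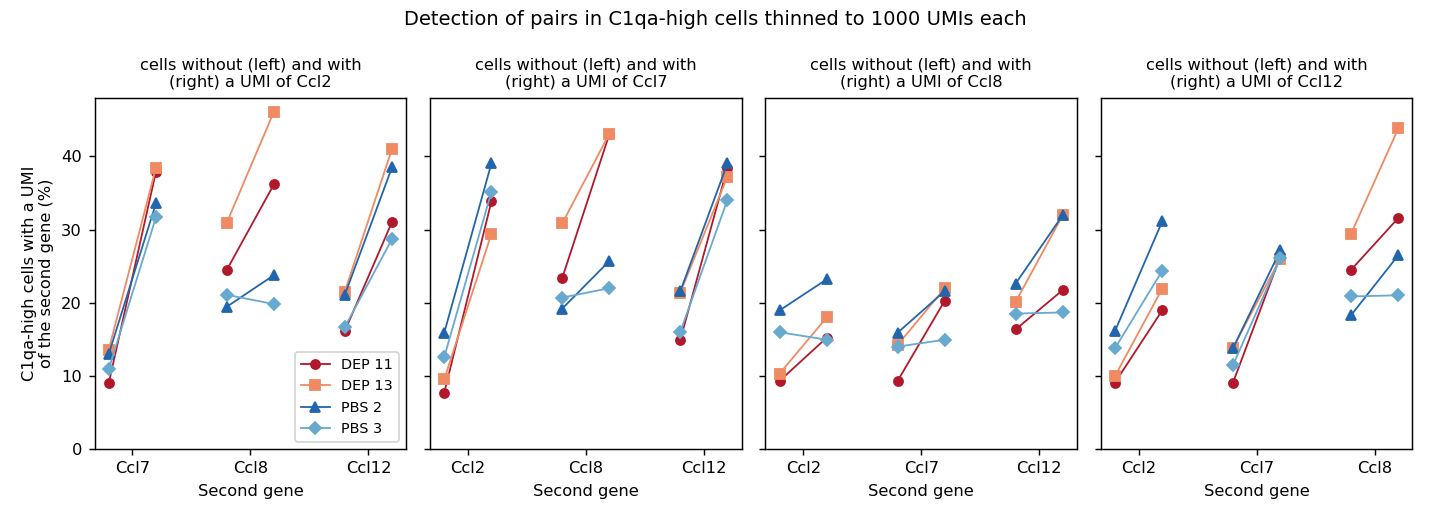
Share of C1qa-high cells with a UMI of a second gene (vertical axis, %) among cells without and with a UMI of the gene named above each panel, after thinning every cell to 1000 UMIs; each line is 1 mouse. Lines of Ccl2 with Ccl7 and of Ccl7 with Ccl12 went up in all 4 mice, and those of Ccl2 with Ccl8 in 3 of 4.

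The analysed cells were also grouped without using any Ccl gene, into 8 clusters named here by number and leading genes. Levels over clusters are described without a test. The order of Ccl8 levels was cluster 6 (led by Pmp22, Vcam1 and Folr2; 1831 CPM, mean of 4 mice), then cluster 1 (H2-M2, Zmynd15 and Mmp13; 619), cluster 4 (Stmn1, Pf4 and Apol7c; 568) and cluster 5 (Isg15; 457). The other 4 clusters lay at 81.6 to 104 CPM on average, at or under the 104 to 167 CPM of the lymphoid cells. Cluster 6 was above cluster 1 in 3 of 4 mice, and clusters 1, 4 and 5 were not in the same order in every mouse. Cluster 6 held 8.25% of the cells and 19.0% of the Ccl8 UMIs, and cluster 1 held 27.7% and 52.6%.

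Ccl12 and Ccl7 were also highest in cluster 6, at 1044 ± 292 and 746 ± 151 CPM (SD, n = 4 mice), and each was above the next cluster in 4 of 4 mice. Ccl2 had another order. It was highest in cluster 7 (led by the acute phase gene Saa3, the osteopontin gene Spp1 and the interleukin-1 receptor antagonist gene Il1rn), at 461, 641, 714 and 600.2 CPM, and in cluster 6, at 298, 797, 602 and 624 CPM, and these 2 clusters did not differ beyond the spread between mice. The remaining 6 clusters lay at 216 to 347 CPM on average, and neighbours in that order changed places between mice. Cluster 7 held 11% of the cells, 21.3% of the Ccl2 UMIs and 2.28% of the Ccl8 UMIs. It was uneven between mice, with 19.3% of the cells of PBS 2, 11.8% of DEP 11, 6.79% of DEP 13 and 5.25% of PBS 3.

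**Figure D3:**
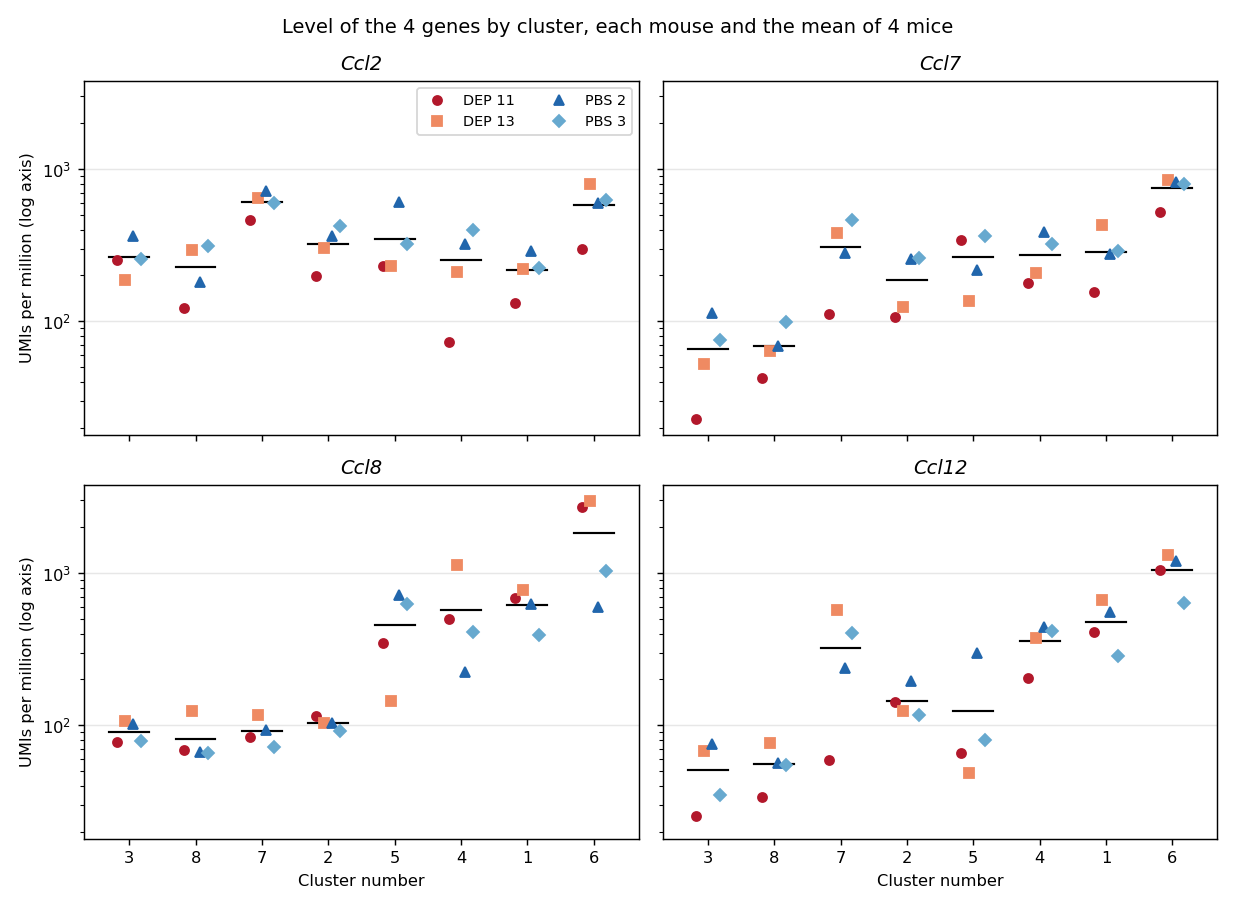
Level of the 4 genes (UMIs per 1000000 UMIs, log axis) in each of 8 clusters; each symbol is 1 mouse and each bar the mean of 4 mice. Ccl7, Ccl8 and Ccl12 were highest in cluster 6, and Ccl2 was highest in clusters 7 and 6.

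Genes that followed each member most closely were sought among the 6622 genes tested, over 32 sums (8 clusters in 4 mice), by Pearson's r of log2(CPM + 1). These sums share libraries and the values are a description. Ccl2 went most closely with the stress-inducible gene Gadd45b (r = 0.77), the immediate early gene Ier3 (0.72) and the chaperone gene Hspa5 (0.71). Ccl7 went with C5ar1, the complement C5a receptor (0.92), the metallothionein gene Mt1 (0.88) and the syndecan gene Sdc4 (0.86). Ccl12 went with C5ar1 (0.87), the cathepsin gene Ctsl (0.86) and Zfhx3 (0.85). Ccl8 went with the leukotriene synthase gene Ltc4s (0.87), Fcrls (0.87) and Tgfbr2, a receptor of TGF-beta (0.86). Among the members, r was highest for Ccl7 with Ccl12 (0.84) and lowest for Ccl2 with Ccl8 (0.08).

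The main question of the study was what oral DEP changes in these cells. In all analysed cells, Ccl8 was 500.3 and 645 CPM in the DEP mice and 361 and 303 CPM in the PBS mice. Both DEP values lay above both PBS values (573 ± 102 against 332 ± 41.0, SD, n = 2 each), a log2 ratio of 0.79, given as a description. Ccl2 ran the other way, at 191 and 289 CPM in DEP mice and 402 and 315 CPM in PBS mice, with no overlap. How many of all genes had groups apart like Ccl8 and Ccl2 was not counted. With 2 mice a group such a separation has an exact permutation p of 0.333. The log2 fold change of Ccl2 was -0.57 ± 0.22 and did not pass the test (edgeR adjusted p = 0.9998). It ran from -0.93 without DEP 13 to -0.27 without DEP 11. Ccl7 was 144 and 269.8 against 285 and 271 CPM, a log2 fold change of -0.42 ± 0.26 (adjusted p = 0.9998) in which the values of DEP 13 and PBS 3 were nearly equal. It was -0.98 without DEP 13 and -0.010 without DEP 11. Ccl12 was 255 and 409 against 401 and 236 CPM, with groups that overlapped (0.07 ± 0.27, adjusted p = 0.9998).

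None of the 3 tested members was called in all analysed cells, where 0% of 6622 genes passed the edgeR test (0 genes, with 172 at an unadjusted p under 0.05, and 4 genes with DESeq2). An exact permutation test over the 6 ways to divide the mice cannot give a two-sided p below 0.333 here. The exact test gave p = 0.333 for the mean CPM of Ccl2, at 240.4 ± 69.3 in DEP and 358 ± 61.2 in PBS mice, and for Ccl7, and p = 0.667 for Ccl12. The share of cells with a UMI, thinned to 1000 UMIs, was 11.1% and 16.8% in DEP and 21.6% and 15.6% in PBS mice for Ccl2 (exact p = 0.667), and 7.78% and 12.0% against 14.2% and 12.8% for Ccl7 (exact p = 0.333).

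**Figure D4:**
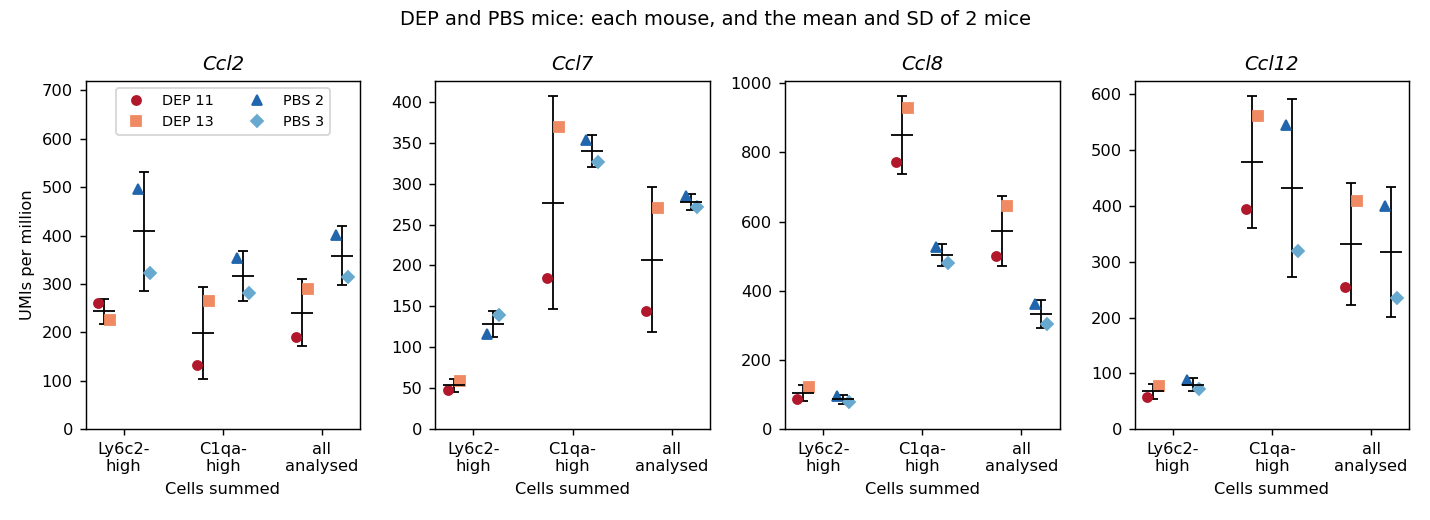
Level of the 4 genes (UMIs per 1000000 UMIs) in Ly6c2-high, C1qa-high and all analysed cells of DEP and PBS mice; each symbol is 1 mouse, and bars give the mean and SD of 2 mice. Ccl8 in C1qa-high cells was 771 and 929 in DEP and 525 and 481 in PBS mice, and Ccl7 in Ly6c2-high cells was 47.9 and 59.0 in DEP and 117 and 140.1 in PBS mice.

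Within the 4 classes none of the 3 tested members passed either. In Ly6c2-high cells, Ccl7 was 47.9 and 59.0 CPM upon DEP exposure and 117 and 140.1 CPM in controls, for a log2 fold change of -1.30 ± 0.26 that did not reach the threshold (edgeR adjusted p = 0.0726). Over the alternatives tried this adjusted p ran from 0.00245, with no filter on genes, to 0.9999. Without the highest cell of each mouse the DEP values were 29.8 and 40.7 CPM and the PBS values 96.9 and 85.7 CPM. Beside these, Ccl7 was 41.8 to 245 CPM in the lymphoid cells and 80.5 to 156 CPM in barcodes under 500 UMIs. Ccl2 in Ly6c2-high cells was 262 and 225 against 496 and 322 CPM (-0.74 ± 0.22, adjusted p = 0.58), and this ran from -0.98 without PBS 3 to -0.44 without PBS 2. In these cells 0% of 5639 genes were called (0 genes, 169 at an unadjusted p under 0.05, and 0 with DESeq2).

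In cells high in neither gene, Ccl7 was 95.4 and 141 CPM in DEP and 218 and 215 CPM in PBS mice (log2 fold change -0.88 ± 0.22, edgeR adjusted p = 0.518), where 0.0167% of 6004 genes were called. Ccl7 did pass in 6 of the 16 alternatives tried, among them without DEP 13 (adjusted p = 0.0466), without PBS 2 (0.00669) and without PBS 3 (0.0313), and Ccl12 passed without DEP 13 (log2 fold change -1.82, adjusted p = 3.34e-05) and without PBS 3 (-0.85, 0.0322). In C1qa-high Folr2-low cells, Ccl8 was 669 and 867 against 484 and 369 CPM, Ccl2 121 and 245 against 299.9 and 267 CPM (-0.62 ± 0.24, adjusted p = 0.9996, from -1.24 without DEP 13 to -0.17 without DEP 11), and no tested member was called (0.0278% of 7198 genes). The median log2 fold change of the monocyte markers was -0.68 in this class and -0.63 in Folr2-high cells, and that of the macrophage markers 0.07 in both. None of these markers was called, and their part in the chemokine values was not tested. In Folr2-high cells, Ccl2 was 270.0 and 488 against 1381 and 592 CPM (-1.32 ± 0.33, adjusted p = 0.254, with 0.0949% of 7374 genes called), and it passed with no filter on genes (adjusted p = 2.49e-06) and with cells limited only by 1000 UMIs (0.0181). With a mouse left out this log2 fold change ran from -1.83 without DEP 13 to -0.62 without PBS 2, with no call. Ccl8 there overlapped, at 2085 and 1595 against 1306 and 2961 CPM.

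Whether the DEP effect differed between C1qa-high and Ly6c2-high cells was tested by an interaction, for which 0.13% of 6906 genes were called. The difference of log2 fold changes was 0.85 ± 0.21 for Ccl7 (edgeR adjusted p = 0.153), -0.09 ± 0.20 for Ccl2 (0.982) and 0.38 ± 0.20 for Ccl12 (0.855), so that none passed. For Ccl7 it passed without DEP 11 (1.247, adjusted p = 0.00549) and with no filter on genes (0.85, 0.0247), and for Ccl12 with any UMI as high (0.79, 0.0144). With a mouse left out it was 0.55 to 1.25 for Ccl7, lowest without DEP 13, and 0.19 to 0.67 for Ccl12, lowest without PBS 3 and highest without PBS 2. For Ccl8 it was 0.54, as a description.

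By cluster, the Ccl8 difference was uneven. In cluster 6 it was 2733 and 2964 CPM in DEP and 599 and 1029 CPM in PBS mice, and in cluster 1, the largest, 688 and 768 against 626 and 393 CPM. In cluster 5 the order was turned, at 347 and 145 against 712 and 625 CPM, from 41 to 96 cells a mouse. Single cells weighed in cluster 6, where 1 cell of DEP 11 held 269 of its 1037 Ccl8 UMIs and 1 cell of PBS 3 held 217 of 432. Ccl12 in cluster 6 was 1041 and 1306 against 1192 and 638 CPM and did not separate the groups. These contrasts were looked at after the cluster levels were known and carry no test.

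Genes of the immediate early and heat shock response, which are known to rise when tissue is digested, were followed beside Ccl2 and Ccl7. Their 13 genes summed to 11154 and 8914 CPM in DEP mice and to 14195 and 10929 CPM in PBS mice, lowest in DEP 13 and highest in PBS 2, whereas Ccl2 was lowest in DEP 11 and highest in PBS 2. Their median log2 fold change, DEP against PBS in all analysed cells, was -0.49 against a median near 0 for all genes, and none of the 13 was called. In single classes, the heat shock gene Hspb1 was called lower in DEP mice in C1qa-high Folr2-low cells (log2 fold change -2.44, edgeR adjusted p = 0.00291) and Ier2 in Folr2-high cells (-1.88, 0.0351). The Hspb1 call was kept in 11 of the 14 alternatives that tested it and lost with DESeq2 (log2 fold change -2.38, adjusted p = 0.82), without DEP 11 (-1.90, edgeR adjusted p = 0.997) and without DEP 13 (-3.04, 0.11). The Ier2 call was kept in 7 of 15 and lost without any 1 of the 4 mice (log2 fold change -2.27 to -1.26, edgeR adjusted p = 0.266 to 0.987). The part of tissue handling in the levels of Ccl2 and Ccl7 was not tested.

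Of the receptors and scavengers of these chemokines, Ccr1, Ccr2 and Ccrl2 passed the filter, and Ccr3, Ackr1 and Ackr2 did not, with at most 0.412 CPM in all analysed cells of any mouse. Ccr2, a receptor of the MCP group on monocytes, was 925, 801, 723 and 723 CPM in Ly6c2-high and 251, 216, 296 and 282 CPM in C1qa-high cells (log2 fold change -1.55, edgeR adjusted p = 6.94e-12). Ccr1 (0.65, 5.09e-06) rose, and the calls of Ccr2 and Ccr1 held in all 16 alternatives. Ccrl2, an atypical receptor, was called lower (-0.31, 0.00262), but not without PBS 2 (-0.16, edgeR adjusted p = 0.106), with the lymphoid cells kept (-0.19, 0.102) or after either thinning (0.714 and 0.195). From Folr2-low to Folr2-high cells Ccr2 (-0.78, adjusted p = 0.00214) and Ccrl2 (-0.93, 4.69e-06) fell. The Ccr2 call was lost without DEP 11 (-0.68, edgeR adjusted p = 0.0896), and both were lost after thinning in the classes of the full depth (0.403 and 0.0602). None of these 3 receptors was called for DEP in any class (all analysed cells: Ccr2 log2 fold change 0.06, adjusted p = 0.9998).

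For the DEP effect on Ccr2, the interaction between the classes passed narrowly (log2 -0.53, edgeR adjusted p = 0.0403): DEP against PBS, Ccr2 was 925 and 801 against 723 and 723 CPM in Ly6c2-high cells, and 251 and 216 against 296 and 282 CPM in C1qa-high cells. In the same interaction C1qa, which defined the classes, (0.62, edgeR adjusted p = 0.0016) and C1qb (0.51, 0.0195) were called. The median was -0.53 for the monocyte markers, with Ccr2 among them, 0.39 for the macrophage markers and 0.0069 for all genes. Whether the make-up of the classes differed between DEP and PBS mice was not tested. The Ccr2 call was kept in 6 of the 16 alternatives, with the same direction in all 16. It was lost with DESeq2 (adjusted p = 0.326), with filterByExpr (edgeR, 0.0982), without DEP 11 (0.112), DEP 13 (0.135) or PBS 2 (0.273), with cells limited only by 1000 UMIs (0.128), with the lymphoid cells kept (0.165), with a stricter limit for high (0.402) and after both ways of thinning (0.592 and 0.9999).

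Of 7 other CC chemokine genes of chromosome 11, Ccl3, Ccl4, Ccl5, Ccl6 and Ccl9 passed the filter, and Ccl1 and Ccl11 did not. From Ly6c2-high to C1qa-high cells Ccl4, an inflammatory chemokine of macrophages, rose (log2 fold change 0.94, edgeR adjusted p = 8.99e-06), Ccl6 (-1.76, 2.28e-15) and Ccl9 (-1.69, 4.06e-14) fell, and Ccl3 (0.0030) and Ccl5 (0.32) were not called. From Folr2-low to Folr2-high cells Ccl6 (0.66, 0.000821) and Ccl9 (0.83, 2.61e-06) rose and Ccl3 (-0.72, 0.000124), Ccl4 (-1.05, 4.12e-05) and Ccl5 (-1.21, 0.00347) fell. With any UMI as high the calls of Ccl6 (0.23, edgeR adjusted p = 0.234) and Ccl5 (-0.66, 0.293) were lost, that of Ccl5 also without DEP 11 (-0.92, 0.088), while those of Ccl3, Ccl4 and Ccl9 held in all 15 alternatives with a value. None of the 5 was called for DEP in any class. Their median log2 fold change in all analysed cells was -0.22 for DEP against PBS, beside a median near 0 for all genes. The interaction was called for Ccl4 (0.85, edgeR adjusted p = 0.0195) and for none of the other 4, and the Ccl4 call was kept in only 7 of the 16 alternatives. Without DEP 13 it was 0.48 (adjusted p = 0.320), without PBS 2 0.66 (0.200), with any UMI as high 0.30 (0.459) and with the stricter limit 0.68 (0.99), and after thinning with redrawn classes its adjusted p was 0.257. It was also lost with DESeq2, with filterByExpr, with cells limited only by 1000 UMIs and with the lymphoid cells kept.

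Of 22 inducers and regulators of these chemokines, 21 passed the filter and 16 were called between the classes, 6 higher and 10 lower in C1qa-high cells, where 39.5% of all genes were called. Among the higher were the transcription factor genes Maf (log2 fold change 1.31, edgeR adjusted p = 4.71e-09) and Irf8 (0.59, 2.36e-07), the cytokine genes Il10 (1.52, 3.15e-06) and Tnf (0.39, 0.00652), and the receptor gene Il4ra (0.78, 1.90e-06). Among the lower were Cebpb (-1.88, 1.92e-06), Stat3 (-0.71, 7.88e-06), Nfkbia (-0.55, 7.82e-08), Ifngr1 (-0.52, 5.88e-07), Stat6 (-0.46, 0.0216), Tnfrsf1a (-0.42, 0.000388), Nfkb1 (-0.33, 0.0272), Irf1 (-0.25, 0.0444) and Fos (-0.23, 0.00183). The calls of Irf1, Nfkb1 and Stat6 were the least stable of those named, kept in 6 of 16, 8 of 14 and 10 of 14 alternatives that tested them. Leaving out a single mouse ended the call of Irf1 (DEP 11, DEP 13 or PBS 2), Nfkb1 (DEP 11 or PBS 2) and Stat6 (DEP 13). Thinning ended those of Fos, Tnf, Stat3, Nfkbia and Tnfrsf1a in at least 1 of its 2 forms, and DESeq2 also that of Tnf. From Folr2-low to Folr2-high cells Maf rose (1.17, 7.91e-06) and Il1b (-1.005, 5.56e-10), Jun (-0.62, 0.00011), Irf8 (-0.61, 0.000341) and Fos (-0.45, 5.75e-05) fell, but the calls of Jun, Irf8 and Fos were lost after thinning in the classes of the full depth (edgeR adjusted p = 0.249, 0.136 and 0.285), and that of Fos with any UMI as high (0.106). None of the 21 was called for DEP in all analysed cells or in any of the 4 classes tested, and their median log2 fold change in all analysed cells was -0.05.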

How the data were processed

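The submitters' processing notes name Cell Ranger, STAR 2.6.1a, R 3.5.1 and mm10. The deposited table holds raw UMI counts per gene and barcode, which the authors made from 10x Genomics 3′ v2 libraries, 1 library per mouse. No source used here states a filter on barcodes ahead of deposit. Barcodes were assigned to mice by the name they carry. Those with at least 1000 UMIs, a log10 gene number of at least 2.5 and over 0% and at most 7% mitochondrial UMIs were normalized with scran 1.30.0 and clustered (500 variable genes without Ccl genes, 34 principal components, Ward tree of 10 clusters). The 2 lymphoid clusters were set aside. Doublets were not removed in the main analysis; scrublet (scanpy 1.11.5) marked 57. Counts were summed per mouse and class, genes with over 1 CPM in at least 2 sums and a UMI in at least 5% of cells were kept, and edgeR 4.0.16 (TMM, quasi-likelihood F test, Benjamini-Hochberg adjustment) gave the tests, with mice as replicates. With 2 mice a group, an adjusted p near 1 shows no equality. DESeq2 1.42.0 was an alternative. The fits were also run on simulated counts, drawn with the same variability for every gene. Of changes of 1 on the log2 scale, 64 of 80 were recovered there for DEP against PBS in all analysed cells. For Folr2-high against Folr2-low cells it was 45 of 100, and for the interaction 19 of 100. Like genes were ranked with a pseudocount of 1 over sums of at least 20 cells. The genes named are the 4 members, the 3 most like each of them and the called genes of lists of receptors, other CC chemokines and regulators; members and lists were chosen with earlier results of these data known. Some genes of these lists are not reported here.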

Additional observations from a re-analysis of the deposited data

Results flagged for a closer look

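The effect of DEP on Ccr2, a receptor of chemokines of this group, differed between C1qa-high and Ly6c2-high cells, by -0.53 on the log2 scale (edgeR interaction, adjusted p = 0.0403). The call was kept in 6 of the 16 alternatives and lost, among others, with DESeq2 (adjusted p = 0.326), without DEP 11, DEP 13 or PBS 2, and after both ways of thinning. The mean of the PBS mice was below that of the DEP mice in Ly6c2-high cells and above it in C1qa-high cells. C1qa (0.62) and C1qb (0.51) were called in the same interaction. Its median was -0.53 for monocyte and 0.39 for macrophage markers, and their part in the Ccr2 value was not tested.

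The effect of DEP on Ccl4 differed between the same classes by 0.85 on the log2 scale (edgeR interaction, adjusted p = 0.0195). The call was kept in 7 of the 16 alternatives and lost, among others, with DESeq2 (adjusted p = 0.9999), without DEP 13 (edgeR, 0.320) or PBS 2 (0.200), and after thinning with redrawn classes (0.257).

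Among the plasma cells set aside before the comparisons, Ccl2 reached 144 and 244 CPM in DEP 11 and DEP 13 against 61.8 and 76.7 CPM in PBS 2 and PBS 3, in 19, 17, 8 and 35 cells. This difference was not tested.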

How the results depend on the processing

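No paired analysis was possible because the mice of the 2 groups share no replicate numbers. Where a mouse is left out, the lone sample of its group is assumed to vary like the others. Numbers of genes called moved most. For DEP against PBS in all analysed cells (0 called) there were 70 with no gene filter, 4 with DESeq2 and 9 to 22 with a mouse left out. In Ly6c2-high cells (0) there were 15 with no filter, 2 after thinning with redrawn classes, 0 after thinning in the classes of the full depth and 0 to 2 with a mouse left out. In cells high in neither (1) there were 24 with no filter, 2 with DESeq2, 10 with high meaning any UMI, 4 each with filterByExpr, with cells limited only by 1000 UMIs and without doublets, 0 each after either thinning and with a stricter limit for high, and 9 to 41 with a mouse left out. In C1qa-high Folr2-low cells (2) there were 67 with no filter, 1 with the stricter limit, 0 after either thinning and 0 to 16 with a mouse left out. In Folr2-high cells (7) there were 43 with no filter, 22 with only the 1000 UMI limit, 3 with DESeq2, 2 with RLE size factors, 1 with the stricter limit, 0 with any UMI or after thinning in the classes of the full depth, and 0 to 2 with a mouse left out. C1qa-high against Ly6c2-high cells (2727 of 6906 tested) gave 489 of 1950 and 838 of 1976 after the 2 ways of thinning, which left fewer genes to test. Folr2-high against Folr2-low cells (408) gave 261 with DESeq2, 254 with any UMI, 95 after thinning and 228 to 379 with a mouse left out. The interaction (9) gave 35 with any UMI, 22 from 2000 UMIs, 21 with no filter, 16 with RLE, 14 without doublets, 5 with only the 1000 UMI limit, 4 with DESeq2, 6 after thinning in the classes of the full depth, 0 after thinning with redrawn classes or with the stricter limit, and 2 to 49 with a mouse left out.

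None of the log2 fold changes of Ccl2, Ccl7 and Ccl12 that turned sign was past the threshold under the alternative, and the cause was not tested. For DEP against PBS, Ccl12 in all analysed cells (0.07) ran from -0.35 to 0.46 with a mouse left out. In Ly6c2-high cells Ccl8 ran from -0.0075 to 0.53 with a mouse left out, and Ccl12 was 0.14 with the stricter limit. Ccl12 in cells high in neither (-0.61) ran from -1.82 to 0.088 with a mouse left out and was 0.15 after thinning with redrawn classes. In C1qa-high Folr2-low cells Ccl7 (-0.34) ran from -1.02 to 0.14 with a mouse left out and was 0.060 with the stricter limit, and Ccl12 (0.20) ran from -0.075 to 0.50. In Folr2-high cells the leave-outs ran from -0.87 to 0.26 for Ccl7, from -0.64 to 0.60 for Ccl8 and from -1.04 to 1.05 for Ccl12, and Ccl8 was 0.022 from 2000 UMIs and 0.42 with any UMI. Between C1qa-high and Ly6c2-high cells Ccl2 turned to 0.18 after thinning with redrawn classes. The interaction of Ccl2 ran from -0.60 to 0.62 with a mouse left out and was 0.26 after thinning with redrawn classes.

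In all analysed cells, the DEP minus PBS difference in percent of cells with a UMI was -4.65 for Ccl2 and -3.63 for Ccl7 after thinning, against -15.1 and -14.3. For Ccl8 it was 1.56 and ran from -5.44 to 8.57 with a mouse left out, negative without PBS 3 or DEP 13, and its difference in CPM was 358 after thinning and 335 as a mean over cells, against 240.3. With a mouse left out, the Ccl12 difference ran from -69.0 to 95.6 CPM, against 13.3, and from -16.3 to 2.62 percentage points, against -6.83. Classes redrawn after thinning left fewer than 10 Folr2-high cells a mouse, so the Folr2-high comparisons have no value there, and thinning within the classes of the full depth was chosen after seeing the data.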
